A study of Mus musculus with 8 samples.

Results

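Macrophages reach the embryo early, first from the yolk sac, and settle in most tissues, where they engulf dying cells and release secreted factors. They survive on signals through the receptor Csf1r, carry pattern receptors and the signalling adaptor Tyrobp, and make the complement protein C1q, which is built from the chains encoded by C1qa, C1qb and C1qc. The optic fissure is a gap along the underside of the developing optic cup that closes by fusion of its margins. The values below describe 10 macrophage genes in that tissue, namely Csf1r, Cx3cr1, Mrc1, Tyrobp, C1qa, C1qb, C1qc, Lyz2, Cd68 and Aif1. They were taken by gene symbol and make up 10 of the 18194 genes that the annotation names with 1 symbol. They were represented by 15 of the 45101 probe sets, a probe set being the group of short oligonucleotides on the array that together read 1 transcript.

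Fissure tissue came from wild-type C57BL/6 embryos and was isolated by laser capture on frozen sections. Embryonic day (E) 10.5 was measured on 3 arrays, E11.5 on 3 arrays and E12.5 on 2 arrays, lettered A to C as in their titles. The RNA on an array was a pool of 3 embryos. No embryo was treated or carried a modified allele, so stage was the only labelled difference. The labels call the arrays biological replicates but name both a single litter and separate litters as the source of a pool, so the p-values cover the spread between these pools.

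The captured tissue carried the genes that define the optic cup on every array. Averaged over Six6, Six3, Pax6, Lhx2, Vax2, Vax1 and Rax, the log2 signal lay between 9.74 and 10.01 at E10.5, 8.82 and 9.68 at E11.5, and 9.93 and 10.1 at E12.5. Of these 7 genes (12 tested probe sets) 1 passed at E12.5 against E10.5, where 4.64% of all tested probe sets passed. It was Vax1, which fell by 1.5 on 1421774_at (adjusted p = 0.032 in limma). That call ended in 5 of the 8 fits that left an array out, with adjusted p up to 0.202, and 1457396_at, the Vax1 probe set of highest signal, did not pass (adjusted p = 0.0501). In a principal component analysis, E10.5 C on the first axis (39.3% of the variance) and E11.5 A on the second (29.4%) stood farthest from the rest of their stage. Completeness of the amplified RNA was gauged by the excess of 3 prime over 5 prime signal in Gapdh, in log2 units. It ranged from 4.19 to 4.71 at E10.5, from 3.35 to 4.63 at E11.5 and from 4.78 to 5.17 at E12.5, so stage and this measure partly move together.

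Most macrophage genes gave low signals over the 3 days. Of the 15 probe sets, 9 passed the limit on low signal, a mean log2 value above 3.94, which keeps the upper 60% of probe sets on the array. They stood for 6 genes (Csf1r, Cx3cr1, Tyrobp, C1qa, C1qb and Lyz2), while Mrc1, C1qc, Cd68 and Aif1 had no probe set above it and were not tested. Over all 8 arrays, 10 of the 15 probe sets spanned 1 log2 unit or less, among them all 6 under the limit. The tested probe sets that spanned more were of Csf1r (2.32 and 1.83), C1qb (1.98 and 1.04) and C1qa (1.35).

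None of the 9 tested probe sets passed in any comparison of stages in limma at an adjusted p below 0.05. Between E11.5 and E10.5 this was 0 of 9, where 0.126% of all 27022 tested probe sets passed, and 0 of 9 had an unadjusted p below 0.05. Between E12.5 and E11.5 it was 0 of 9, against 1.82% of all, again with 0 of 9 unadjusted. Between E12.5 and E10.5 it was 0 of 9, against 4.64% of all, with 2 of 9 unadjusted, and in the F test for any stage difference it was 0 of 9, against 2.92% of all and with 0 of 9 unadjusted. Over all 27022 tested probe sets, the unadjusted p was below 0.05 in 5254 for E11.5 against E10.5 and 4507 for E12.5 against E11.5. It was below 0.05 in 5993 for E12.5 against E10.5 and in 6618 in the F test. The unadjusted counts of the lists below are to be read beside these numbers, though they count genes and not probe sets. The comparisons of E11.5 and of E12.5 with E10.5 share the E10.5 arrays.

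Without regard to the test, most of the differences from E10.5 were positive. The median log2 difference of the 9 probe sets was 0.21 for E11.5 minus E10.5, against -0.18 for all tested probe sets, and 8 of 9 were positive, against 29.1% of all. For E12.5 minus E11.5 the median was 0.05, against 0.10 for all, and 5 of 9 were positive, against 60% of all. For E12.5 minus E10.5 it was 0.43, against -0.08 for all, and 8 of 9 were positive, against 42.4% of all. Several of the 9 read the same gene, so these are not 9 independent values. The upper end of the deposited signals differed between arrays. Their 99th percentile was 12.91, 12.53 and 12.85 at E10.5 and 11.17, 11.81 and 12.37 at E11.5, while array medians lay between 4.37 and 4.48. The shares of positive differences are those of the deposited values, and the part of this spread in them was not tested. Quantile normalization of the arrays brought the median of all probe sets for E11.5 minus E10.5 to -0.02 and that of the 9 to 0.36.

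**Figure D1:**
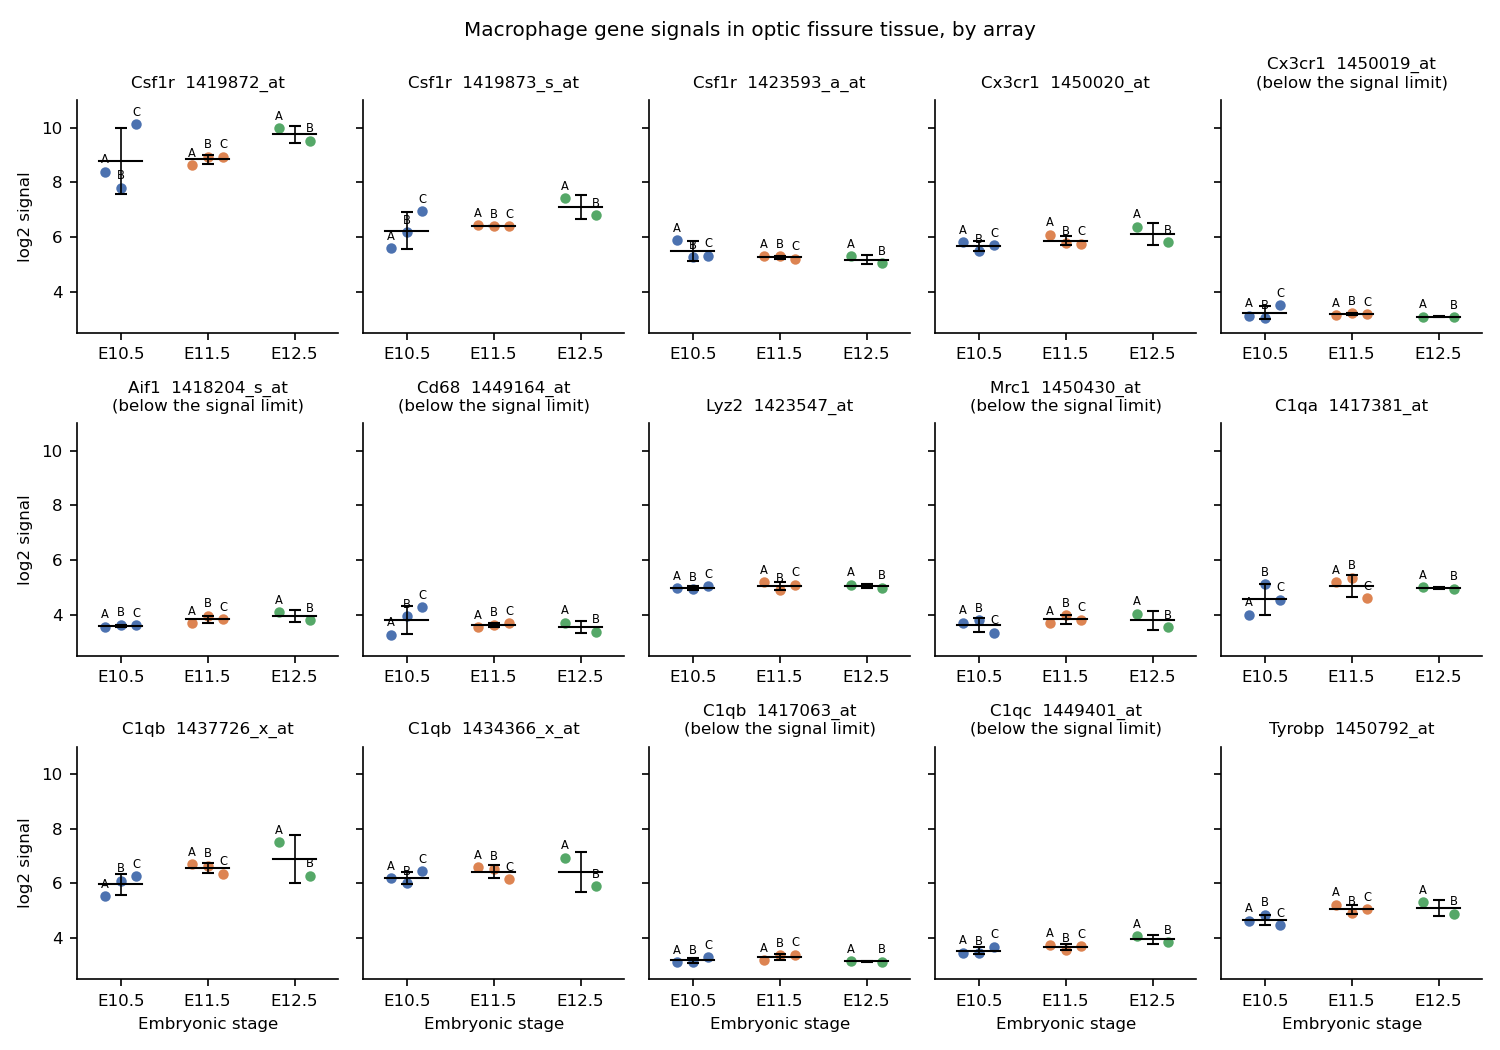
Log2 signal (vertical axis) of the 15 probe sets of the 10 macrophage genes at each embryonic stage (horizontal axis). Each point is an array with its letter, and bars give the stage mean and SD (n = 3, 3 and 2). Signals span 1 log2 unit or less in 10 of the 15 panels, among them all 6 under the limit on low signal. The widest spread, 2.32 log2 units, is in Csf1r, where E10.5 C stands at 10.12.

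Csf1r encodes the receptor for the growth factors CSF1 and IL-34, on which most macrophages depend. Its probe set 1419872_at read a log2 signal of 8.39, 7.80 and 10.12 on E10.5 A, B and C, 8.63, 8.94 and 8.94 on E11.5 A, B and C, and 9.98 and 9.52 on E12.5 A and B. Both E12.5 arrays stood above all E11.5 arrays, but E10.5 C was the highest of the 8, so E12.5 and E10.5 overlapped. The difference for E12.5 minus E10.5 was 0.98 (SE 0.533, 95% interval -0.184 to 2.14, adjusted p = 0.306 in limma), which includes both no change and a change of over 4-fold.

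The probe set 1419873_s_at of Csf1r followed the same course, with 5.58, 6.17 and 6.94 at E10.5, 6.42, 6.40 and 6.40 at E11.5, and 7.41 and 6.80 at E12.5. The 3 arrays at E11.5 were almost equal, and E10.5 C again lay above them. For E12.5 minus E10.5 the difference was 0.88 (SE 0.355, 95% interval 0.103 to 1.65, adjusted p = 0.176). The suffix s marks a probe set whose oligonucleotides can match more than 1 transcript, in the manufacturer's naming.

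The remaining Csf1r probe set, 1423593_a_at, did not follow them. It read 5.89, 5.25 and 5.32 at E10.5, 5.30, 5.29 and 5.20 at E11.5, and 5.29 and 5.05 at E12.5, and the arrays of all stages overlapped. Its difference for E12.5 minus E10.5 was -0.32 (SE 0.237, 95% interval -0.835 to 0.199, adjusted p = 0.459). The probe sets of this gene therefore give opposite signs, and no direction for Csf1r holds over all 3.

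The outcome for Csf1r rested on E10.5 C. Without that array the difference for E12.5 minus E10.5 was 1.65 on 1419872_at (SE 0.303, 95% interval 0.982 to 2.33, adjusted p = 0.0162 in limma) and 1.23 on 1419873_s_at (SE 0.274, 95% interval 0.626 to 1.84, adjusted p = 0.0368). It was -0.40 on 1423593_a_at (adjusted p = 0.394). In that fit 2 of the 9 tested macrophage probe sets passed, both of Csf1r, where 3.8% of all probe sets did. With E10.5 A or E10.5 B left out instead, no macrophage probe set passed, and the difference on 1419872_at was 0.79 without E10.5 A and 0.50 without E10.5 B.

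**Figure D2:**
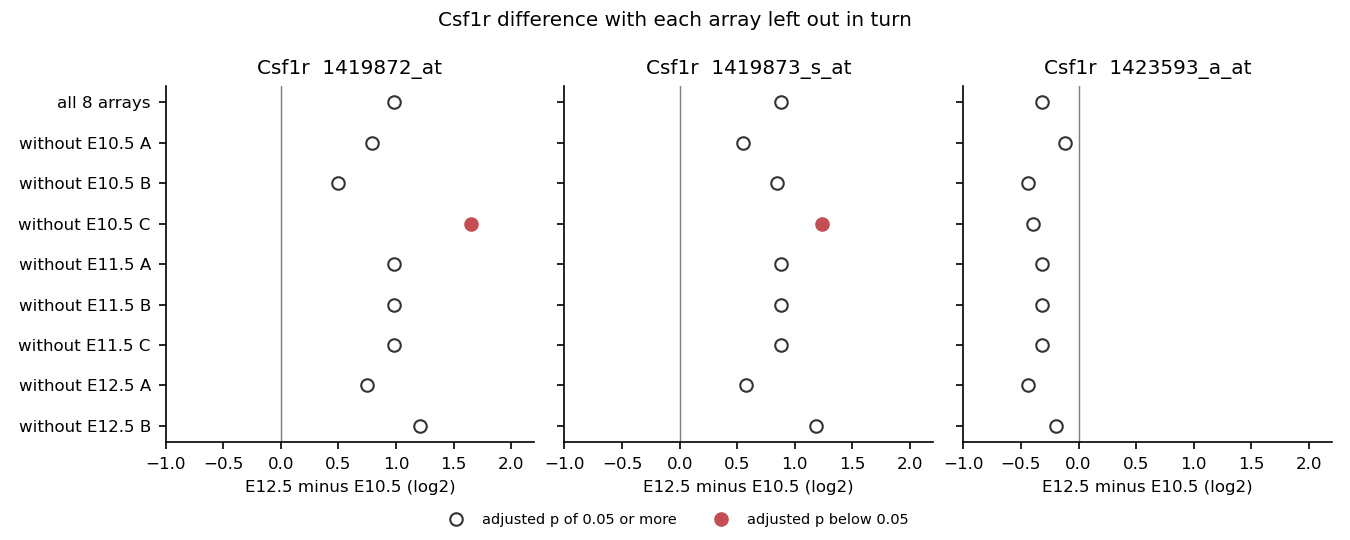
Difference of log2 stage means, E12.5 minus E10.5 (horizontal axis), for the 3 Csf1r probe sets with all 8 arrays and with each array left out in turn (rows). Filled red points have an adjusted p below 0.05 in limma and open points do not. The 2 filled points, 1.65 and 1.23, are the fits without E10.5 C, and 1423593_a_at stays below 0 in every row.

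Among 13050 genes with a tested probe set, those whose profile over the 8 arrays lay closest to 1419872_at were Selenop, Tgm2, Dzip1, Stx17 and Heph, with root mean square distances of 0.29, 0.31, 0.31, 0.32 and 0.33 log2 units after centring each gene on its own mean. Selenop encodes the selenium carrier selenoprotein P, Tgm2 a transglutaminase that cross-links proteins, and Heph the iron oxidase hephaestin. Selenop read 8.35, 8.50 and 9.78 at E10.5, 8.37, 9.09 and 9.01 at E11.5, and 9.92 and 9.57 at E12.5. All 5 were also high on E10.5 C, with 9.49 in Tgm2, 6.19 in Dzip1, 8.96 in Stx17 and 10.36 in Heph. That follows from their choice by likeness to this profile and is no separate finding. None of these 5 was among the listed macrophage genes.

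Csf1 encodes a ligand of Csf1r and was picked for that role. Its probe set with the highest signal, 1425154_a_at, read 6.23, 6.11 and 6.35 at E10.5, 6.24, 6.20 and 6.09 at E11.5, and 5.87 and 5.97 at E12.5. The difference for E12.5 minus E10.5 was -0.31 (95% interval -0.784 to 0.165, adjusted p = 0.431 in limma), although both E12.5 arrays lay below all others. On its other tested probe sets E12.5 and E10.5 overlapped. The difference there was -0.23 on 1460220_a_at (adjusted p = 0.633) and -0.0 on 1448914_a_at (adjusted p = 0.997). The other ligand gene, Il34, lay under the limit on every array, between 2.81 and 3.52.

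Of 8 tested genes (15 tested probe sets) in the list of Csf1r, its ligands, related receptors and signalling proteins, 1 rose and 1 fell at E12.5 against E10.5. The other 6 did not pass, the median was 0.03, and 4.64% of all tested probe sets passed in this pair. The numbers were 0 of 8 in each of the other pairs of stages, with 2 genes at an unadjusted p below 0.05 for E11.5 against E10.5 and 4 for E12.5 against E11.5. Pik3r1, a regulatory subunit of phosphoinositide 3-kinase, rose by 1.23 (SE 0.27, adjusted p = 0.0271), with 6.2 and 7 at E12.5, against 5.31, 5.28 and 5.51 at E10.5. Plcg2, a phospholipase of immune receptor signalling, fell by 1.31 (SE 0.311, adjusted p = 0.0369), with 6.27 and 5.38 at E12.5, against 6.84, 7.26 and 7.31 at E10.5. Without E12.5 B these became 0.83 (adjusted p = 0.438) and -0.86 (adjusted p = 0.517), and in all the Pik3r1 call ended in 4 and the Plcg2 call in 5 of the 8 fits that left an array out.

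Cx3cr1 is the receptor for the chemokine fractalkine and is abundant on microglia, the macrophages of the nervous system. Its tested probe set 1450020_at read 5.82, 5.47 and 5.70 at E10.5, 6.08, 5.77 and 5.76 at E11.5, and 6.38 and 5.81 at E12.5. The stages overlapped, and E12.5 A was the highest of the 8. The difference for E12.5 minus E10.5 was 0.43 (SE 0.25, 95% interval -0.114 to 0.977, adjusted p = 0.336). Its other probe set, 1450019_at, stayed between 3.05 and 3.50 on all arrays and was not tested.

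The fractalkine gene itself, Cx3cl1, also did not pass in any pair of stages (0 of 2 genes of the fractalkine list, with 1 at an unadjusted p below 0.05 for E11.5 against E10.5 and 0 in the other pairs). Its probe set 1415804_at read 4.42, 4.24 and 5.19 at E10.5, 4.47, 4.46 and 4.54 at E11.5, and 4.38 and 4.34 at E12.5, with E10.5 C highest. The difference for E12.5 minus E10.5 on 1415804_at was -0.26 (95% interval -0.805 to 0.289, adjusted p = 0.580 in limma). The other tested probe set, 1415803_at, read 4.44, 4.71 and 4.64 at E10.5, 4.28, 4.14 and 4.17 at E11.5, and 4.39 and 4.11 at E12.5. All later arrays there lay below the E10.5 arrays. On 1415803_at the difference was -0.40 for E11.5 minus E10.5 (unadjusted p = 0.0259, adjusted p = 0.208) and -0.35 for E12.5 minus E10.5 (adjusted p = 0.272).

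Mrc1 encodes the mannose receptor of tissue macrophages. It read 3.72, 3.81 and 3.35 at E10.5, 3.69, 3.99 and 3.82 at E11.5, and 4.04 and 3.55 at E12.5, so its mean lay under the limit. The highest value was on E12.5 A and the lowest on E10.5 C, and the stages overlapped.

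Tyrobp, also known as DAP12, is the membrane adaptor through which Trem2 and related receptors signal. It read 4.64, 4.86 and 4.48 at E10.5, 5.22, 4.90 and 5.05 at E11.5, and 5.32 and 4.89 at E12.5. All 5 later arrays stood above the 3 E10.5 arrays, the closest being 4.89 on E12.5 B and 4.86 on E10.5 B. The difference was 0.40 for E11.5 minus E10.5 (SE 0.194, 95% interval -0.0252 to 0.822, adjusted p = 0.279) and 0.45 for E12.5 minus E10.5 (SE 0.217, 95% interval -0.0255 to 0.922, adjusted p = 0.25).

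In the list of Tyrobp, its receptor partners and the kinases behind them, 0 of 8 tested genes passed in any pair of stages, and 0 had an unadjusted p below 0.05. The medians were 0.06 for E11.5 minus E10.5, -0.15 for E12.5 minus E11.5 and -0.19 for E12.5 minus E10.5. On 1421226_at, Trem2, the lipid-sensing receptor paired with Tyrobp, read between 5.21 and 5.32 at E10.5, between 5.25 and 5.61 at E11.5, and 4.94 and 5.11 at E12.5. On 1418261_at, Syk, the kinase recruited by the adaptor, stayed between 4.86 and 5.27 on all arrays. On these probe sets both E12.5 arrays lay below the others in Trem2, and the stages overlapped in Syk. On the other tested probe set of Trem2, 1421792_s_at, the stages overlapped. Zap70 and Fcer1g, a kinase and an adaptor of immune receptors with higher signal in this list, had differences of -0.47 (adjusted p = 0.375) and -0.10 (adjusted p = 0.869) for E12.5 minus E10.5.

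The genes C1qa, C1qb and C1qc are neighbours in the RefSeq annotation of GRCm38.p6, and C1q opens the classical complement pathway by binding to immune complexes and dying cells. C1qb had 3 probe sets. On 1437726_x_at it read 5.54, 6.10 and 6.27 at E10.5, 6.71, 6.65 and 6.36 at E11.5, and 7.52 and 6.28 at E12.5. Every later array was above every E10.5 array, the closest being 6.28 on E12.5 B and 6.27 on E10.5 C.

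The difference on this probe set was 0.60 for E11.5 minus E10.5 (SE 0.317, 95% interval -0.0899 to 1.30, adjusted p = 0.312) and 0.93 for E12.5 minus E10.5 (SE 0.355, 95% interval 0.156 to 1.71, adjusted p = 0.154). The E12.5 arrays, at 7.52 and 6.28, lay farther apart than the stage means. Without E12.5 A the difference for E12.5 minus E10.5 was 0.31, and without E12.5 B it was 1.55, neither passing (adjusted p = 0.755 and 0.111). The suffix x marks oligonucleotides that may cross-hybridize, in the manufacturer's naming.

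The probe set 1434366_x_at of C1qb read 6.19, 6.00 and 6.44 at E10.5, 6.60, 6.54 and 6.15 at E11.5, and 6.94 and 5.91 at E12.5. E12.5 A was the highest and E12.5 B the lowest of the 8, and the difference for E12.5 minus E10.5 was 0.21 (95% interval -0.474 to 0.901, adjusted p = 0.724). The probe set without a suffix letter, 1417063_at, stayed between 3.12 and 3.39 on all arrays and was not tested.

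C1qa read 4.01, 5.13 and 4.55 at E10.5, 5.20, 5.36 and 4.61 at E11.5, and 5.01 and 4.96 at E12.5. E10.5 B lay within the range of the later stages, and the difference for E11.5 minus E10.5 was 0.50 (SE 0.28, 95% interval -0.115 to 1.11, adjusted p = 0.343). C1qc lay under the limit, with 3.47, 3.45 and 3.68 at E10.5, 3.75, 3.56 and 3.71 at E11.5, and 4.08 and 3.84 at E12.5. Both E12.5 arrays were above the other 6 in C1qc, and a fit with no limit on low signal gave 0.43 for E12.5 minus E10.5 (adjusted p = 0.171).

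In the list of classical complement genes, 1 of 7 tested genes (12 tested probe sets) rose at E12.5 against E10.5, where 4.64% of all tested probe sets passed. The other 6 did not pass, and the median was 0.66. The numbers were 0 of 7 in each of the other pairs of stages, with 1 gene at an unadjusted p below 0.05 for E11.5 against E10.5 and 0 for E12.5 against E11.5. The gene was C2, a serine protease of the classical pathway, with 7.77 and 7.56 at E12.5, against 5.82, 5.67 and 6.53 at E10.5 on 1441912_x_at. This was a rise of 1.66 (SE 0.379, adjusted p = 0.032 in limma), and 1457664_x_at gave 1.94 (SE 0.427, adjusted p = 0.0272). On 1416051_at the difference was 0.63 and did not pass (adjusted p = 0.114). Both called probe sets carry the suffix x of oligonucleotides that may cross-hybridize, and 1416051_at does not. The call on 1457664_x_at ended in 4 of the 8 fits that left an array out and in 1 other alternative. The call on 1441912_x_at ended in 5 of the 8 fits that left an array out, with the highest adjusted p, 0.214, without E12.5 B.

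Lyz2, lysozyme M, breaks down bacterial cell walls and is a common marker of myeloid cells. It read 4.98, 4.93 and 5.05 at E10.5, 5.20, 4.91 and 5.10 at E11.5, and 5.1 and 5 at E12.5. It was the most level of the tested probe sets, with a span of 0.29, and the stages overlapped. The difference for E12.5 minus E10.5 was 0.06 (SE 0.192, 95% interval -0.356 to 0.485, adjusted p = 0.876), so the interval lies within a 2-fold change either way.

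Cd68, a glycoprotein of macrophage lysosomes, read 3.27, 3.94 and 4.27 at E10.5, 3.54, 3.64 and 3.69 at E11.5, and 3.72 and 3.39 at E12.5. Its highest and lowest values were both at E10.5. Aif1, an actin-bundling protein also called Iba1, read 3.57, 3.64 and 3.62 at E10.5, 3.70, 3.97 and 3.85 at E11.5, and 4.11 and 3.8 at E12.5. In Aif1 all later arrays stood above the E10.5 arrays. Both genes lay under the limit, and a fit with no limit gave adjusted p = 0.271 for Aif1 and 0.578 for Cd68 in E12.5 minus E10.5.

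Complete separation of the arrays of a pair of stages was counted over the 9 tested probe sets. For E11.5 above E10.5 these were 2 of 9, C1qb on 1437726_x_at and Tyrobp, against 3.57% of all tested probe sets. For E12.5 above E11.5 they were 2 of 9, both of Csf1r, against 29.6% of all. For E12.5 above E10.5 they were again 2 of 9, C1qb on 1437726_x_at and Tyrobp, against 19.3% of all.

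**Figure D3:**
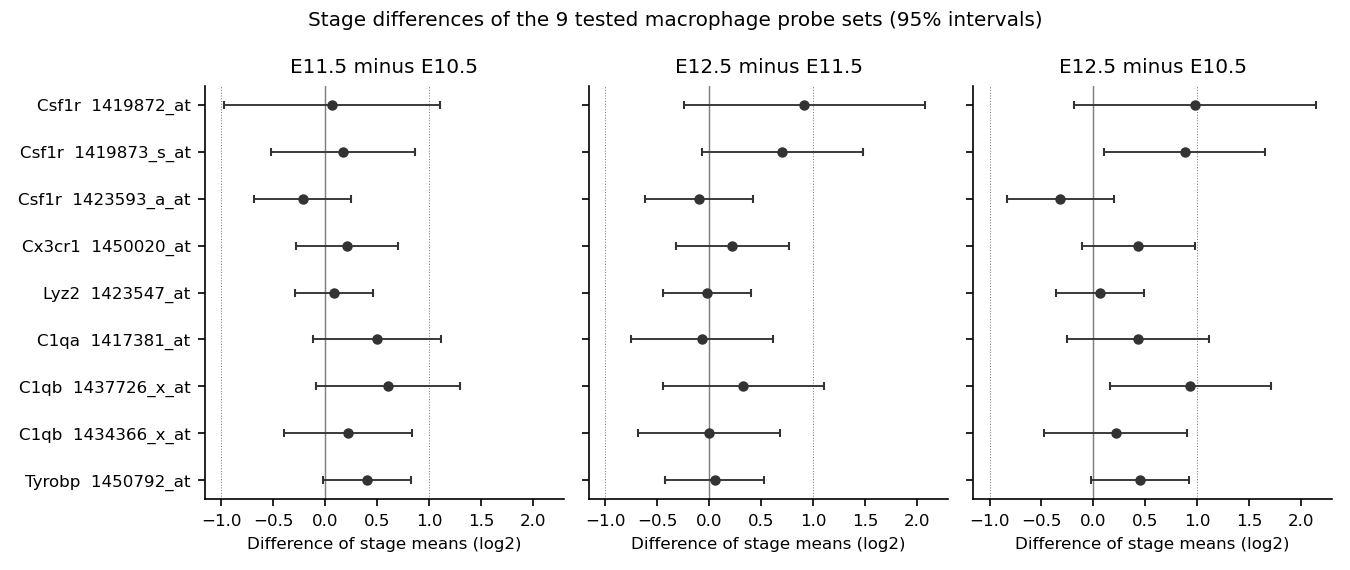
Differences of log2 stage means (horizontal axis) with 95% intervals from limma for the 9 tested macrophage probe sets (rows), in 3 pairs of stages (panels). The dotted lines mark 2-fold changes. The intervals of Csf1r on 1419873_s_at and C1qb on 1437726_x_at for E12.5 minus E10.5 lie above 0, but neither passed after adjustment.

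How large a change these arrays leave possible differed between the genes. For E12.5 minus E10.5, the 95% intervals of 5 of the 9 probe sets lay within a 2-fold change either way, and 4 reached above it. The intervals of 8 of 9 lay within a 4-fold change, the exception being Csf1r on 1419872_at. For E11.5 minus E10.5 and for E12.5 minus E11.5, 6 of 9 lay within a 2-fold change and 3 reached above it in each. In pooled tissue of this kind, a change in the number of macrophages and a change in the RNA of each cannot be told apart.

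The E12.5 arrays differed from each other in a shared direction. All 15 probe sets of the 10 genes read higher on E12.5 A than on E12.5 B, by as little as 0.02 under the limit. Of the tested ones this was 9 of 9, against 59.0% of all tested probe sets. Means of other lists described below were also higher on A: other macrophage and microglia genes (5.03 against 4.85), engulfment genes (6.42 against 6.11) and endothelial genes (4.81 against 4.63). The mean of the mast cell, megakaryocyte and lymphocyte genes was lower on A (3.95 against 4.15). The median difference of the 9 tested probe sets was 0.46, against 0.05 for all. Of the 15, 8 had their highest value of the 8 arrays on E12.5 A, 3 on E10.5 C and 0 on E12.5 B. The Gapdh measure of RNA completeness read 5.17 on array A and 4.78 on array B of E12.5, while the same measure in Actb ran the other way, with 6.88 on A and 7.21 on B. The part of RNA completeness in this difference was not tested.

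Beyond the 10 genes, 1 of 25 tested genes (37 tested probe sets) in a list of other macrophage and microglia genes rose at E12.5 against E10.5. Counted by genes or by probe sets, this share was not above the 4.64% of all tested probe sets called in this pair. The other 24 genes did not pass, and the median was -0.14. At an unadjusted p below 0.05 there were 7 genes, of which Laptm5, Ctss, Fcgr3, Ptprc and Dab2 had positive and Maf and Irf8 negative differences on the probe sets concerned. Ctss, the lysosomal protease cathepsin S of antigen-presenting cells, read 9.77 and 9.14 at E12.5, against 7.72, 7.57 and 7.05 at E10.5, with 7.73, 8.27 and 8.79 at E11.5. The rise was 2 (SE 0.36, 95% interval 1.22 to 2.79, adjusted p = 0.0108), and the E12.5 arrays lay above all 6 others. It was 1.69 and no longer passed without E12.5 A (adjusted p = 0.102), and it passed with each of the other 7 arrays left out. In the other pairs of stages 0 of 25 passed, with 4 genes for E11.5 against E10.5 and 3 for E12.5 against E11.5 at an unadjusted p below 0.05.

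Genes commonly used to define macrophages and leukocytes did not pass, and their differences had both signs. Spi1, the transcription factor PU.1, read 4.50 and 4.37 at E12.5, against 4.82, 4.43 and 4.97 at E10.5. Adgre1, the surface antigen F4/80, read 6.02 and 5.80 at E12.5, against 6.18, 5.85 and 5.72 at E10.5. Ptprc, the leukocyte antigen CD45, had a difference of 1.04 for E12.5 minus E10.5 (95% interval 0.413 to 1.67), with 5.84 and 5.28 at E12.5, against 4.45, 4.73 and 4.38 at E10.5, but did not pass (adjusted p = 0.0633). Irf8, a transcription factor of myeloid development, had differences of -0.69 on 1416714_at (adjusted p = 0.18) and -0.79 on 1448452_at (adjusted p = 0.093). Maf, a transcription factor that macrophages share with lens and other tissues, had -1.39 on 1447849_s_at (adjusted p = 0.128) and -0.91 on 1456060_at (adjusted p = 0.164). These 5 genes were named for their role or after their values were seen. The microglial genes P2ry12 and Gpr34 lay under the limit, at 2.77 to 3.25 on all arrays, while Tmem119 and Siglech lay above it. Tmem119 read 4.10 to 4.89 and Siglech 4.55 to 5.34 over all arrays, and neither passed in any pair of stages.

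**Figure D4:**
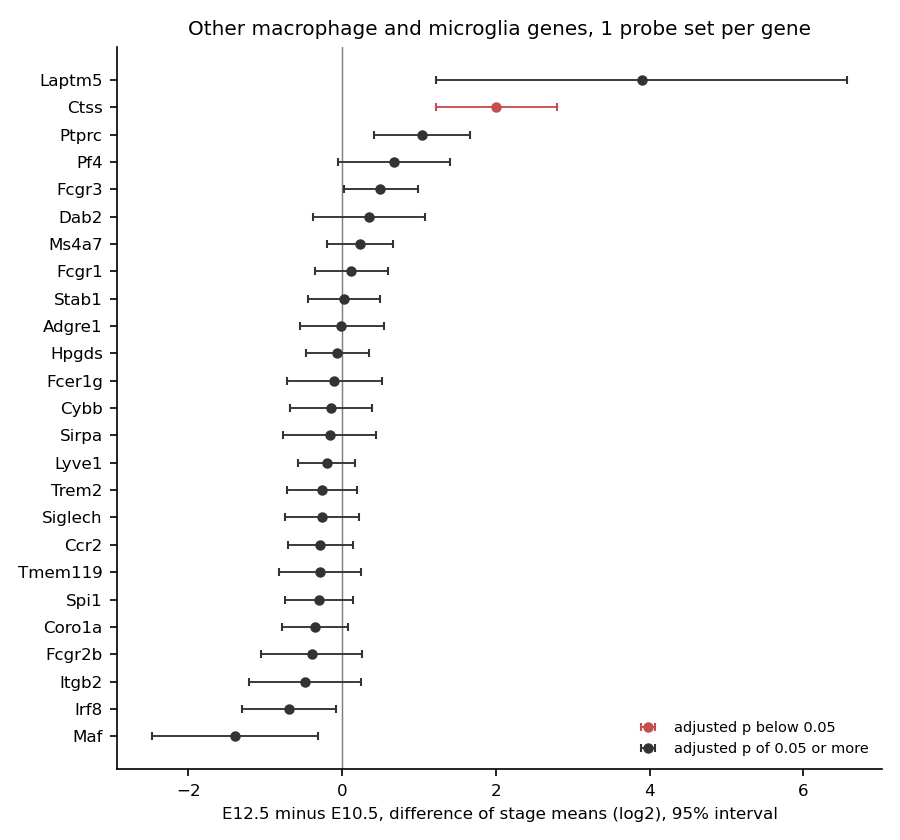
Difference of log2 stage means, E12.5 minus E10.5, with 95% intervals from limma (horizontal axis), for the 25 tested genes in the list of other macrophage and microglia genes (rows), each by its probe set of highest signal. Ctss, at 2, is the gene with an adjusted p below 0.05 (red), and the wide interval of Laptm5 reflects its unequal E10.5 arrays.

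Genes for engulfing dying cells did not pass in any pair of stages. Of 17 tested, 0 passed, with medians of -0.03, 0.10 and 0.04 for E11.5 minus E10.5, E12.5 minus E11.5 and E12.5 minus E10.5, and 2, 2 and 4 genes had an unadjusted p below 0.05. Lamp1, a lysosomal membrane protein of all cells, read 11.35 and 11.09 at E12.5, against 11.63, 10.82 and 10.91 at E10.5. Mfge8, a bridge between dying cells and phagocytes, read 8.57 and 8.16 at E12.5, against 8.99, 8.55 and 9.65 at E10.5. Itgav, an integrin chain that binds such bridges, had a difference of -0.59 (adjusted p = 0.309), and Dock1, an activator of engulfment, had 1.04 (adjusted p = 0.155). Chosen after their values were seen, Gulp1, an engulfment adaptor, had 2.10 on 1434423_at (SE 0.581, adjusted p = 0.0637) and 0.83 on 1453771_at (adjusted p = 0.0924), and Abca1, a lipid exporter, had 1.29 (adjusted p = 0.0978). The differences in this list thus had both signs.

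Markers of other blood and vessel cells are set beside these values, since captured tissue can hold them. Among 9 tested red cell genes (15 tested probe sets), 1 fell at E12.5 against E10.5, where 4.64% of all tested probe sets passed. It was the embryonic globin Hbb-bh1, which fell by 3.12 on 1437990_x_at (adjusted p = 0.00424). Its signal on the E12.5 arrays was 8.96 (A) and 7.29 (B). Without E12.5 B the difference was -2.29 and no longer passed (adjusted p = 0.0958). Hbb-bh1 also passed for E12.5 against E11.5, where 1.82% of all did, and fell by 3.06 on 1437990_x_at (adjusted p = 0.00755 in limma). That difference ranged from -3.90 to -2.23 over the alternatives listed below and passed in 17 of 18. For E11.5 against E10.5, 0 of 9 passed. In E11.5 against E10.5, E12.5 against E11.5 and E12.5 against E10.5, 5, 4 and 4 genes had an unadjusted p below 0.05. Over all 13 red cell genes the mean log2 signal was 6.36 to 6.48 at E10.5, 6.38 to 6.84 at E11.5 and 6.05 to 6.18 at E12.5. For 15 endothelial genes it was 4.60 to 4.62, 4.69 to 4.74 and 4.63 to 4.81, with 0 of 10 tested passing in any pair of stages (3, 2 and 1 at an unadjusted p below 0.05). For the 10 macrophage genes themselves it was 4.74 to 5.11 at E10.5, 5.09 to 5.17 at E11.5 and 5.11 to 5.53 at E12.5. For 9 neutrophil and monocyte genes it was 3.93 to 4.18, 3.84 to 4.03 and 3.84 to 3.89, with 2 tested and 0 passing (0 at an unadjusted p below 0.05 in any pair). For 11 mast cell, megakaryocyte and lymphocyte genes it was 3.95 to 4.25, 3.96 to 4.05 and 3.95 to 4.15, with 5 tested and 0 passing (0, 1 and 0 unadjusted). The part of other cell types in the macrophage values was not tested.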

How the data were processed

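Biotin-labelled RNA, amplified by repeated in vitro transcription, was hybridized to Affymetrix arrays, per the labels' protocols. The authors deposited log2 signals for 45101 probe sets on 8 arrays. The submitters' processing notes name GCOS 1.4 without a role. The method of probe summary and array scaling is not stated there or in the labels. Gene names came from the platform annotation of 2016, and all 15 macrophage probe sets matched a RefSeq table by gene identifier. No detection calls were used.

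The 64 control probe sets and the lowest 40% by mean signal were left out, which kept 27022. Tests used limma (version 3.58.1, R version 4.3.3), with 1 mean per stage over all 8 arrays (5 residual degrees of freedom), empirical Bayes moderation with a trend, two-sided tests and Benjamini-Hochberg adjustment over all kept probe sets, at a threshold of 0.05. The script was tested on simulated data. A list's median takes 1 probe set per gene, that of highest signal, and a gene counts as called if any probe set is. A count of genes is therefore not in the same unit as the share of all tested probe sets set beside it. Every member was named, then in each other list the called genes or, where none was called, up to 4 of highest signal. Exceptions are marked, and lists of other cell types without a call are given by their counts. Likeness was sought for members spanning at least 2 log2 units, naming 5 genes. The members, lists and tests were chosen with earlier results of these data known. Alternatives were quantile normalization, median centring, pseudocounts of 1 and 64, no filter, a filter of the lowest 60%, no trend, array weights, a replicate block and leaving out each array, and, chosen after seeing the data, leaving out E10.5 C and E11.5 A together.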

Additional observations from a re-analysis of the deposited data

How the results depend on the processing

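The count of macrophage probe sets called was 0 of 9 in every comparison as reported, and it stayed 0 under quantile normalization, median centring, pseudocounts of 1 and 64, no filter (0 of 15), a filter of the lowest 60% (0 of 6) and no variance trend. With array weights it was 2 for E12.5 minus E11.5, 2 for E12.5 minus E10.5 and 3 for any stage difference, but the weights rested on E11.5 B, at 218 against at most 1.2 for any other array, and the weights' estimation did not converge. With E10.5 C and E11.5 A both left out, a choice made after seeing the data, it was 2 for E12.5 minus E10.5 and 1 for any stage difference. Leaving out 1 array at a time gave 0 to 2 for E12.5 minus E10.5 and 0 to 1 for any stage difference, the higher values being those without E10.5 C, and 0 for the other pairs. A stage left with 1 array was assumed to vary like the others. With a replicate block on the letters A to C the count was 0 in every comparison. Same-lettered arrays did not deviate together (correlations of -0.39, -0.11 and -0.38 between E10.5 and E11.5 for A, B and C), so the letters were not taken as pairs.

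Of 27 differences followed (9 probe sets in 3 pairs of stages), 16 kept their sign under every alternative, 11 turned under at least 1 and 0 of those 11 passed with either sign. Leaving out 1 array gave ranges of -0.42 to 0.74 and -0.15 to 0.53 for Csf1r on 1419872_at and 1419873_s_at in E11.5 minus E10.5. In E12.5 minus E11.5 they were -0.22 to 0.020 for Csf1r on 1423593_a_at, -0.063 to 0.51 for Cx3cr1, -0.10 to 0.042 for Lyz2, -0.29 to 0.082 for C1qa, -0.29 to 0.95 and -0.52 to 0.52 for C1qb on 1437726_x_at and 1434366_x_at, and -0.16 to 0.26 for Tyrobp. In E12.5 minus E10.5 the range was -0.31 to 0.73 for C1qb on 1434366_x_at. Other turned values were, for Lyz2, -0.046 in E11.5 minus E10.5 and 0.14 in E12.5 minus E11.5 with array weights, and in E12.5 minus E11.5 also 0.00087 with the replicate block and 0.042 with both arrays left out. For E12.5 minus E11.5, C1qa turned to 0.0054 and C1qb on 1434366_x_at to 0.083 with both arrays left out, that C1qb probe set to 0.018 with a pseudocount of 64, and Tyrobp to -0.021 after quantile normalization. In E12.5 minus E10.5, differences that kept their sign still moved when 1 array was left out, from 0.15 to 0.72 in Cx3cr1, 0.15 to 0.71 in C1qa, 0.24 to 0.66 in Tyrobp and 0.31 to 1.55 in C1qb on 1437726_x_at. The cause was not tested. The replicate block also ended the calls of Vax1 on 1421774_at (-1.50, adjusted p = 0.0861), Ctss (2.04, adjusted p = 0.0534) and Plcg2 (-1.26, adjusted p = 0.104).

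Counts over all tested probe sets moved more: for E11.5 minus E10.5, 34 became 0 with a pseudocount of 64, 6 without the variance trend, 5 with the replicate block, 103 with both arrays left out and 5017 with array weights. For E12.5 minus E10.5, 1255 became 531 with the replicate block and 3371 with array weights, and 209 without E12.5 B.

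With 3, 3 and 2 arrays, the 95% intervals of 4 of 9 probe sets for E12.5 minus E10.5 reach beyond a 2-fold change, and the deposited values give no measure of signal over background.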

Other observations

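Laptm5, a lysosomal membrane protein of blood cells, gave unequal readings between its probe sets. On 1447742_at it read 12.49 and 12.71 at E12.5, against 6.49, 12.30 and 7.32 on E10.5 A, B and C, with 12.23 to 12.50 at E11.5. On 1436905_x_at it read 9.04 and 8.23 at E12.5, against 8.74, 7.79 and 9.56 at E10.5. The first gave a difference of 3.90 for E12.5 minus E10.5 (SE 1.22, adjusted p = 0.0930) and the second -0.06 (adjusted p = 0.952).

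Serping1, the inhibitor of the C1 complement enzymes, was named, like Laptm5, after its values were seen. It was highest on E10.5 C, as Csf1r was on 1419872_at but not on its other probe sets. It read 7.14 and 7.65 at E12.5, against 5.45, 5.6 and 8.35 at E10.5, with 6.33 to 6.48 at E11.5. Its difference for E12.5 minus E10.5 was 0.93 (95% interval -0.509 to 2.37, adjusted p = 0.435).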
